A study of Homo sapiens with 6 samples.

Results

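MHC class I antigen presentation was examined through 9 genes: the heavy chains HLA-B, HLA-C, HLA-E and HLA-F, their partner B2M, the peptide transporter genes TAP1 and TAP2, TAPBP, and PSMB9. They were chosen by gene symbol, as 9 of the 81496 symbols in the table, and each had 1 probe set. The arrays compared MCF10.AT1, untreated and sensitive to fluvastatin, with MCF10.AT1-R, the fluvastatin-resistant line selected from it in doses of 1, 5 and up to 20 µM. Fluvastatin is a statin and blocks HMG-CoA reductase of the cholesterol pathway. Both lines derive from human MCF10A breast epithelium, carry the activated HRAS of the MCF10.AT1 line and were grown in the same medium. The labels give the cell type as breast cancer, while the study calls MCF10.AT1 preneoplastic. MCF10.AT1-R is 1 derived line, and whether it is a clone, and whether fluvastatin was present at harvest, is not given in the sources used here. Each line had 3 Clariom D arrays, labelled as biological replicates without saying what separates them, so the spread between them may be technical. Values are on the log2 scale of the RMA method.

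The comparison used A01 and A02 of MCF10.AT1 and B02, B03 and B04 of MCF10.AT1-R. A03, the third MCF10.AT1 array, was left out of the fit, which follows the study's methods, and is given apart. Over all transcript probe sets its correlation with the other arrays was 0.780 to 0.795, against 0.967 to 0.977 among these. The letter in the array name differs between the lines, so whatever it stands for cannot be told apart from the line. Markers of basal breast epithelium lay above the 95th percentile of the negative controls (2.99 on average) on all 5 arrays for 8 of 8 genes, and general epithelial markers for 4 of 4. A gene was tested when its probe set passed limits on mean and spread, and called at an FDR of 5% in limma with Benjamini-Hochberg adjustment over all 51457 probe sets tested. Limma settled on 1 SD of 0.34 for all probe sets, and each p-value rests on this pooled spread, not on that of the gene's own arrays. All 9 genes passed these limits and lay above the negative controls on all 5 arrays.

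Class I molecules show peptides from inside the cell to CD8 T cells. The proteasome cuts proteins into peptides, and under interferon its catalytic subunits are exchanged for those of the immunoproteasome, PSMB9 among them. TAP1 and TAP2 form the pump that carries peptides into the endoplasmic reticulum, where tapasin, the product of TAPBP, holds it next to heavy chains waiting for a peptide. A heavy chain that has paired with beta-2-microglobulin and bound a peptide moves to the cell surface. Epithelial cells make these proteins at rest, and interferon raises them through IRF1 and NLRC5.

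PSMB9 fell in MCF10.AT1-R, and it was the 1 gene of the 9 called. Among all probe sets tested 1.20% were called, 0.447% as lower and 0.758% as higher. The other 8 genes had changes above 0 on the log2 scale, from 0.16 for HLA-B to 1.03 for HLA-F, and none of them was called. Arrays of the 2 lines were fully apart in 8 genes, with MCF10.AT1-R on the upper side for 7 and on the lower side for PSMB9. Over all probe sets tested 26.7% did not overlap, 12.9% with MCF10.AT1-R above and 13.8% with it below. At an unadjusted p under 0.05 in limma, 5 of the 9 genes would pass (HLA-C, HLA-E, HLA-F, TAPBP and PSMB9), against 8.26% of all probe sets tested. When the variance was allowed to follow the expression level (limma's trend option), 4 of the 9 were called, HLA-C, HLA-F and TAPBP as higher and PSMB9 as lower, against 2.68% of all, 1.69% as higher and 0.981% as lower. The same 4 were called with that option and the limit on mean alone, against 1.60% of all. No gene of the 9 was called with the limit on mean alone and no trend, or without limits, against 0.268% and 0.130% of all. The median change over the 9 genes was 0.52, against -0.01 over all probe sets tested. With A03 counted as MCF10.AT1 this median was 1.49 and no gene was called, PSMB9 included.

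**Figure D1:**
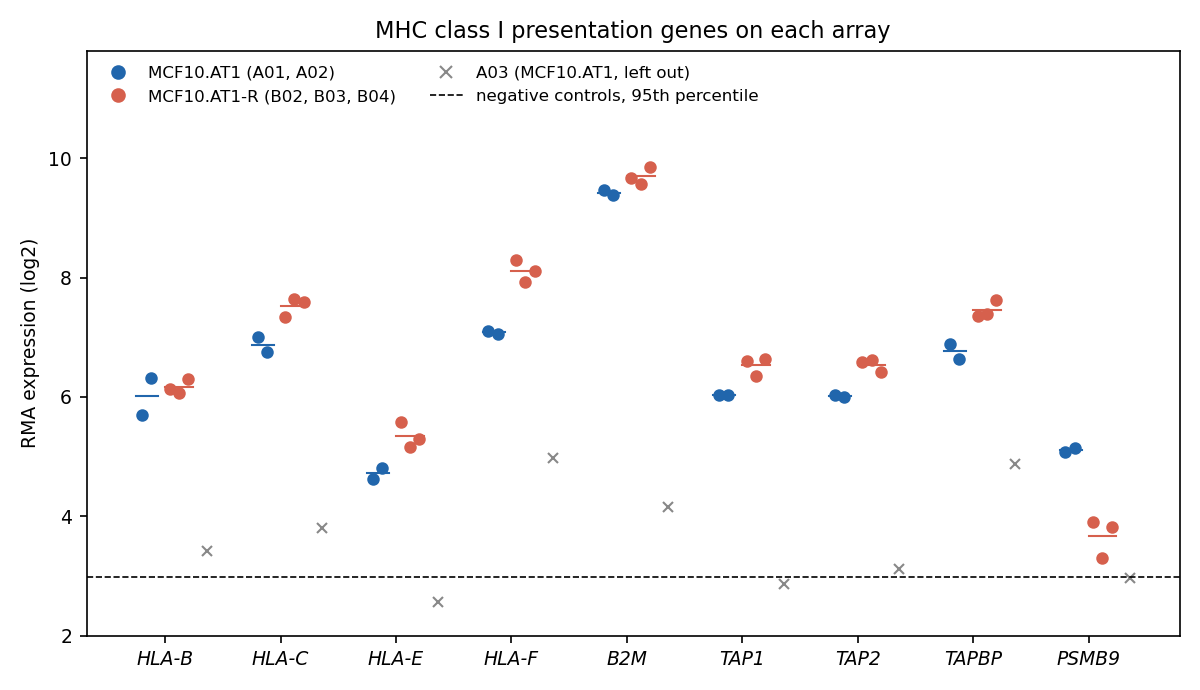
Log2 expression of the 9 genes on each array: blue points are MCF10.AT1 (A01, A02), orange points MCF10.AT1-R (B02, B03, B04), short lines the means, crosses A03, and the dashed line the mean 95th percentile of the negative controls (2.99). PSMB9 is the 1 gene with all MCF10.AT1-R points below both MCF10.AT1 points, in 7 genes they lie above, and in HLA-B they overlap.

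HLA-F, a non-classical class I molecule that can reach the cell surface without a peptide, had the largest change among the 8 genes that were higher. Its values (TC0600007480.hg.1) were 7.10 and 7.06 on the MCF10.AT1 arrays A01 and A02, and 8.29, 7.92 and 8.12 on B02, B03 and B04. The lowest MCF10.AT1-R array thus lay well above both MCF10.AT1 arrays. The log2 change was 1.03 (standard error 0.31, 95% interval 0.42 to 1.64), or 2.04-fold, with an adjusted p of 0.0672 from limma, just short of the threshold. Of all probe sets tested, 441 had a higher change and 1.40% a larger one in either direction. HLA-F was called with the trend option (adjusted p = 1.12e-09). It was also called when limma weighted the arrays (adjusted p = 0.0354), where 735 probe sets were called in all. Over all alternatives its adjusted p ranged from 1.12e-09 to 0.777.

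HLA-C, a classical heavy chain that presents peptides to T cells and is a ligand of killer-cell receptors, read 7.00 and 6.75 in MCF10.AT1 (TC0600014257.hg.1). On the MCF10.AT1-R arrays it read 7.33, 7.64 and 7.59, all above MCF10.AT1. This gave a log2 change of 0.64 (standard error 0.31, 95% interval 0.03 to 1.25, adjusted p = 0.555 from limma). With the trend option the adjusted p was 0.00638, and over all alternatives it ranged from 0.00638 to 0.942.

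HLA-E, which presents leader peptides of other class I molecules to natural killer cells, read 4.63 and 4.81 in MCF10.AT1 (TC0600007530.hg.1). Its MCF10.AT1-R values of 5.58, 5.16 and 5.30 did not overlap with these. The log2 change was 0.63 (95% interval 0.02 to 1.24, adjusted p = 0.569 from limma), and it was not called under any alternative.

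HLA-B, the most polymorphic of the classical heavy chains, was the gene whose lines overlapped. It read 5.70 on A01 and 6.31 on A02 (TC0600014258.hg.1), and 6.13, 6.07 and 6.31 on the MCF10.AT1-R arrays. The MCF10.AT1 arrays differed more from each other than the line means did, and the log2 change was 0.16 (95% interval -0.45 to 0.77, adjusted p = 0.902 from limma). Without A01 the sign turned, to a change of -0.14 (adjusted p = 0.977). HLA heavy chain genes are alike in sequence and vary between people, so short probes may read more than 1 of them or read an allele poorly. The probes are not in the deposited table, and this was not tested.

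B2M, the light chain that pairs with these heavy chains, read 9.46 and 9.38 in MCF10.AT1 and 9.67, 9.57 and 9.85 in MCF10.AT1-R (TC1500007097.hg.1). The arrays did not overlap, but the step between them was small. Its log2 change was 0.27 (95% interval -0.34 to 0.89, adjusted p = 0.842 from limma). The interval leaves room for a fall as well as for a rise approaching that fitted for HLA-F.

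**Figure D2:**
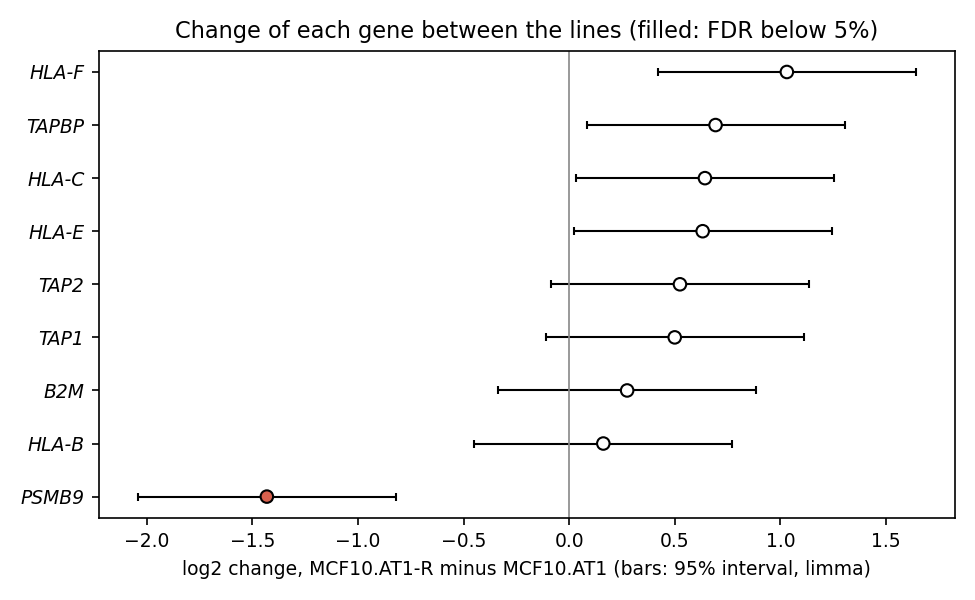
Log2 change of each gene, MCF10.AT1-R minus MCF10.AT1, with its 95% interval from limma over 5 arrays. The filled point is PSMB9 at -1.43, past an FDR of 5%, and the open points run from HLA-B at 0.16 to HLA-F at 1.03.

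Both chains of the peptide transporter had small changes. TAP1 (TC0600011508.hg.1) read 6.03 and 6.04 in MCF10.AT1 and 6.59, 6.36 and 6.64 in MCF10.AT1-R. TAP2 (TC0600014275.hg.1), the other chain of the same pump, read 6.04 and 6.00, then 6.59, 6.61 and 6.42. In both genes the lines were apart on every array. The log2 change was 0.50 for TAP1 (95% interval -0.11 to 1.11, adjusted p = 0.741 from limma) and 0.52 for TAP2 (95% interval -0.09 to 1.14, adjusted p = 0.714). Neither gene was called under any alternative.

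TAPBP (TC0600011536.hg.1) read 6.89 and 6.64 in MCF10.AT1. On the MCF10.AT1-R arrays it read 7.35, 7.40 and 7.62, again without overlap. Its log2 change was 0.69 (standard error 0.31, 95% interval 0.08 to 1.30, adjusted p = 0.473 from limma), or 1.62-fold. TAPBP was called with the trend option (adjusted p = 0.00291), and its adjusted p ranged from 0.00291 to 0.942 over all alternatives.

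PSMB9 encodes the immunoproteasome subunit that takes the place of PSMB6 and favours cuts that leave hydrophobic peptide ends. Its probe set (TC0600014110.hg.1) read 5.07 and 5.15 on A01 and A02. On B02, B03 and B04 it read 3.90, 3.31 and 3.83, so the highest MCF10.AT1-R array was more than 1 log2 unit under the lowest MCF10.AT1 array. The fall was 2.70-fold, or -1.43 on the log2 scale (standard error 0.31, 95% interval -2.04 to -0.82), with an adjusted p of 0.000878 from limma. Of the probe sets tested, 76 had a lower change. The value of 3.31 on B03 lies close to that array's negative controls, whose 95th percentile was 2.96. The call was lost without A01 (adjusted p = 0.0539), without A02 (adjusted p = 0.102), with the limit on mean alone (adjusted p = 0.0903) and without limits (adjusted p = 0.103). The change without A01 was -1.47 and without A02 it was -1.39, with the lone MCF10.AT1 array assumed to vary like the others. Over all alternatives the adjusted p ranged from 0.000129 to 0.777, the highest with A03 included, where the change was -0.72.

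TAP1 and PSMB9 lie head to head on chromosome 6, on opposite strands, and RefSeq (GRCh38.p14) places their start sites 488 bases apart, for TAP1 the outermost of 2 listed. On the same array the TAP1 value minus the PSMB9 value was 0.95 on A01 and 0.89 on A02, and 2.70, 3.05 and 2.81 on B02, B03 and B04. Probe sets differ in affinity, so the level of this difference carries no meaning, but its shift of 1.93 between the lines measures how unequally these neighbours changed. On A03 the difference was -0.10, with both genes below that array's negative controls at 3.15. The pair was chosen for its neighbourhood with the changes known, and the shift was not tested.

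The 250 bases before each of the 2 start sites are shown because these genes share 1 stretch of promoter and their changes had opposite signs. The TAP1 window is chr6:32853705-32853954 on the minus strand and the PSMB9 window chr6:32853942-32854191 on the plus strand, and the windows share 13 bases at their far ends. Both are written 5′ to 3′ toward the gene. Capitals mark matches on either strand to a pair of GAAA with any 2 bases between, the core of the interferon-stimulated response element (ISRE), to GGG, TT and CC with any 2 and then any 1 base between, a pattern like that bound by NF-kappa-B, to TGACG, the core of a cyclic AMP response element, and to CCAAT.
TAP1: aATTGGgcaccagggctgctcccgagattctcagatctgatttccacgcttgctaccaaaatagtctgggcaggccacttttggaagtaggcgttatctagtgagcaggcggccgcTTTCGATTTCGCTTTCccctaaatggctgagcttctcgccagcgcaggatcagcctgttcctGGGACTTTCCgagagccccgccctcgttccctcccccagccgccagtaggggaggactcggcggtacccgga
PSMB9: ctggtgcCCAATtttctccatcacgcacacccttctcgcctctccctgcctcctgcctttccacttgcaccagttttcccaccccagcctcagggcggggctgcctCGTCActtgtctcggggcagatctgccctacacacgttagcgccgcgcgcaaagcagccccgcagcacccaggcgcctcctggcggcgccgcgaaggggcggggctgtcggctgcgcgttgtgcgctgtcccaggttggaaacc
The TAP1 window held overlapping ISRE cores, from base -134 to -119 counted from the start site, and 1 NF-kappa-B-like match from -72 to -63. The PSMB9 window matched TGACG and CCAAT and neither of the other patterns, but it ends short of the ISRE cores of TAP1, which lie between the 2 start sites. Absence from the window says only that these letters are not in it.

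Promoters of 8 of the 9 genes were in the RefSeq table, all but that of HLA-E. The stretches that hold the matches are given for the 6 others because, with TAP1, they belong to the genes whose changes were above 0. They are HLA-B chr6:31357221-31357366, HLA-C chr6:31272134-31272294, TAP2 chr6:32838760-32838807 and TAPBP chr6:33314079-33314144 on the minus strand, and HLA-F chr6:29723268-29723391 and B2M chr15:44711363-44711482 on the plus strand.
HLA-B: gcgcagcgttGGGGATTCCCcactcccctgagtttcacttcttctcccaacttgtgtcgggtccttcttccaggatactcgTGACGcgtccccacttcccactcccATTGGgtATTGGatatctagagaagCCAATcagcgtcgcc
HLA-C: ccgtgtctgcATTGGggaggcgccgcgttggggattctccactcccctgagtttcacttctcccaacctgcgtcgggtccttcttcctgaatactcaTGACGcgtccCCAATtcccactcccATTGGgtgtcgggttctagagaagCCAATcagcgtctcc
HLA-F: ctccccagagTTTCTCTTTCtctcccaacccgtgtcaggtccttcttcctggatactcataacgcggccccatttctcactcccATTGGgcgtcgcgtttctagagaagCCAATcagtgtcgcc
B2M: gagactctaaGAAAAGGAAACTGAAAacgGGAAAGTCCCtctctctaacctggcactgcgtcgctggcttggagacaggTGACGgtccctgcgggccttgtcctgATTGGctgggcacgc
TAP2: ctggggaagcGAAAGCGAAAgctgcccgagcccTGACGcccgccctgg
TAPBP: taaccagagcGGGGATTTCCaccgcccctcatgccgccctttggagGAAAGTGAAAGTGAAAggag
Within 250 bases before the start, the ISRE core was found in 5 of the 8 promoters, those of HLA-F, B2M, TAP1, TAP2 and TAPBP, against 3.02% of all 35116 RefSeq promoters. In B2M and TAPBP, as in TAP1, the matches overlap each other. The NF-kappa-B-like pattern was found in 4, those of HLA-B, B2M, TAP1 and TAPBP, against 5.07% of all promoters. TGACG was found in 5, those of HLA-B, HLA-C, B2M, TAP2 and PSMB9, against 21.2%, and CCAAT in 6 against 32.0%. The CCAAT of TAP1 and that of PSMB9 are 1 site in the bases their windows share, read from either side. The motifs were chosen after these sequences were seen, so the shares are no test of enrichment. Only these exact letters were searched, so a promoter without a match, such as that of HLA-B or HLA-C for the ISRE core, may hold a variant. The matches describe the sequence, no binding was measured, and their part in the changes was not tested.

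None of 10 proteasome partners of PSMB9 was called. Of these 5 were tested, and the median change over the 10 was -0.02. PSMB8, the immunoproteasome subunit encoded beside TAP1, read 7.05 and 6.97 in MCF10.AT1 and 6.96, 6.78 and 7.29 in MCF10.AT1-R, so its change was 0.00 (adjusted p = 0.999 from limma). PSMB10, the remaining immunoproteasome subunit, read 6.09 and 5.94, then 5.55, 5.21 and 5.96. Its lines overlapped, and its change was -0.44 (adjusted p = 0.789). Among the constitutive subunits that these replace, PSMB6 read 8.14 and 8.37, then 8.79, 8.90 and 8.95, without overlap. Its change was 0.62 (adjusted p = 0.584 from limma, 1.17e-05 with the trend option). PSMB5 (0.22) and PSMB7 (-0.12) were removed by the limit on spread. The difference of PSMB6 and PSMB9 on the same array, the constitutive subunit minus the one that replaces it, was 3.07 and 3.23 in MCF10.AT1 and 4.89, 5.60 and 5.13 in MCF10.AT1-R. It shifted by 2.06, against 0.22 for PSMB5 minus PSMB8 and 0.32 for PSMB7 minus PSMB10, and in both of these the lines overlapped. The 3 pairs were compared with the changes known, and the shifts were not tested. The assembly factor POMP changed by -0.05, the inhibitor PSMF1 by 0.20 and the interferon-induced activator subunits PSME1 and PSME2 by -0.04 and -0.24. With the trend option 2 of the 10 were called, PSMB6 and the activator subunit PSME3 (0.46, adjusted p = 0.0344, and 0.779 without the option), both higher. Of all probe sets tested, 1.69% were called higher with that option.

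**Figure D3:**
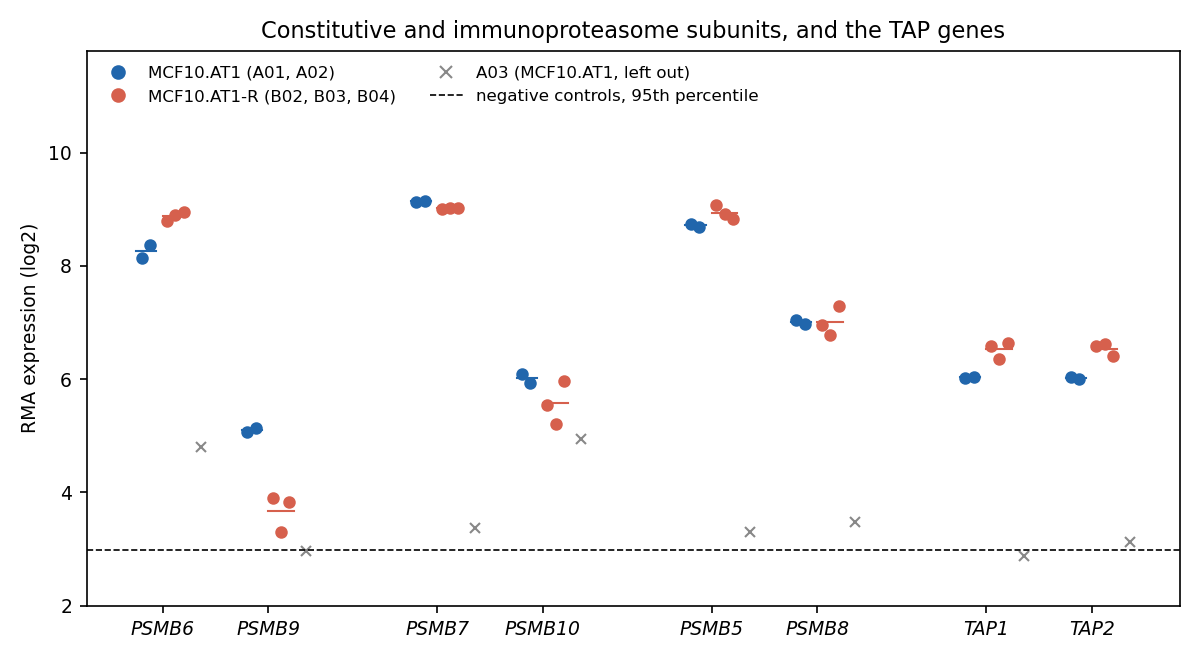
Log2 expression on each array of the constitutive proteasome subunits PSMB6, PSMB7 and PSMB5, each beside the immunoproteasome subunit that replaces it (PSMB9, PSMB10, PSMB8), and of TAP1 and TAP2. Symbols are blue for MCF10.AT1, orange for MCF10.AT1-R, crosses for A03, short lines for means and the dashed line for the negative controls at 2.99. PSMB9 drops in MCF10.AT1-R while the points of PSMB8 and PSMB10 overlap between the lines.

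None of 9 partners in peptide loading and trimming was called. Of these 4 were tested, and the median change was 0.10. The chaperone CANX read between 11.27 and 11.37 on all 5 arrays, and CALR between 9.86 and 10.06. BCAP31, which escorts membrane proteins out of the endoplasmic reticulum, changed by 0.13. PDIA3, the oxidoreductase bound to tapasin, read 7.78 and 7.89 in MCF10.AT1 and 7.44, 7.21 and 7.46 in MCF10.AT1-R. Its change was -0.47 (adjusted p = 0.770 from limma), and its arrays did not overlap.

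Of 19 class I-like molecules outside the 9 genes, 16 were tested and none was called. Changes were above 0 in 15 of the 19, with a median of 0.23, and among the 16 tested the lines were apart in 10, with MCF10.AT1-R above in 8 and below in 2, against 12.9% and 13.8% of all probe sets tested. The genes of the list with the highest mean values were the pseudogene HLA-J (change 0.31), the stress ligand MICA (0.10), HLA-G (0.07) and the pseudogene HLA-L (0.23). With the trend option 2 of the 19 were called, both higher, against 1.69% of all probe sets tested. They were MR1, which presents vitamin metabolites to MAIT cells (0.90, adjusted p = 0.0415, and 0.171 without the option), and RAET1L, a ligand of the NKG2D receptor (0.89, adjusted p = 0.0204, and 0.187 without it). MR1 and RAET1L were picked for mention after their values were known.

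Among 20 regulators of class I transcription, 16 were tested and 1 was called higher, against 0.758% of all probe sets tested. This was JAK1, a kinase bound to interferon receptors. JAK1 read 8.15 and 8.07 in MCF10.AT1 and 9.41, 9.36 and 9.40 in MCF10.AT1-R. The arrays within a line lay close together and the lines far apart, with a log2 change of 1.28 (standard error 0.31, adjusted p = 0.00583 from limma). The call was lost without A01 and without A02, each of which left a lone MCF10.AT1 array. The change was then 1.32 and 1.25. The call was also lost without limits (adjusted p = 0.0554 from limma). It was also lost with A03 included, where the adjusted p was 0.777, the highest in a range that began at 5.04e-29. The median change over the 20 regulators was 0.12. The kinase TYK2 changed by 0.26, the receptor chain IFNGR2 by -0.26 and the RFX complex member RFXANK by -0.15. NLRC5, the transactivator of class I genes, read 4.38 and 3.51, then 3.61, 4.21 and 3.94, a change of -0.03. IRF1 changed by -0.20 with overlapping lines, and RFX5 by -0.05. NLRC5, IRF1 and RFX5 were picked for mention after their values were known.

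Of 23 interferon-stimulated genes 18 were tested and 3 were called, all higher in MCF10.AT1-R, against 0.758% of all probe sets called higher. Among the 18 tested the lines were apart in 12, with MCF10.AT1-R above in 10 and below in 2. Over all probe sets tested these shares were 12.9% and 13.8%. The median change over the 23 genes was 0.38. IFI27 read 4.25 and 3.35, then 5.23, 5.71 and 6.27, a change of 1.93 (adjusted p = 2.83e-07 from limma). ISG15, a ubiquitin-like protein, read 4.13 and 3.64, then 5.16, 4.62 and 5.19, a change of 1.11 (adjusted p = 0.0356). CD274, which encodes the checkpoint ligand PD-L1, read 4.72 and 4.24, then 5.43, 5.50 and 5.88, a change of 1.12 (adjusted p = 0.0313). The MCF10.AT1 arrays differed in all 3 genes, A01 being the higher, and without A02 none of the 3 was called (adjusted p = 0.0559, 0.804 and 0.780). Without A01 the calls of ISG15 (adjusted p = 0.114) and CD274 (0.108) were lost, as they were without B04 (0.173 and 0.198), and that of ISG15 also without B02 (0.159). All 3 calls were also lost with the limit on mean alone (adjusted p = 0.158 for IFI27, 0.260 for ISG15 and 0.199 for CD274), without limits (0.171, 0.343 and 0.264), with values raised to the negative controls (0.450, 0.462 and 0.375) and with A03 included. Over all alternatives the adjusted p ranged from 9.07e-11 to 0.777 for IFI27, from 0.00568 to 0.804 for ISG15 and from 0.00104 to 0.780 for CD274. SAMD9 had a change of 1.05 (adjusted p = 0.0593 from limma), OAS1 of -0.41, OAS3 of 0.34 and IFIT3 of 0.46. With the trend option 4 of the 23 were called higher, the 3 above and SAMD9 (adjusted p = 8.35e-09), against 1.69% of all probe sets tested. SAMD9 was also called when limma weighted the arrays (adjusted p = 0.0337). The chemokines CXCL10 and CXCL11 lay below the negative controls on all 5 arrays.

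None of the 12 MHC class II genes lay above the negative controls on all 5 arrays, 10 were tested and none was called. Their median change was -0.10. HLA-DMA, which edits class II peptides, changed by 0.68 (adjusted p = 0.490 from limma). The class II transactivator CIITA changed by 0.18, HLA-DRB1 by 0.47 and HLA-DQB1 by -0.32.

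**Figure D4:**
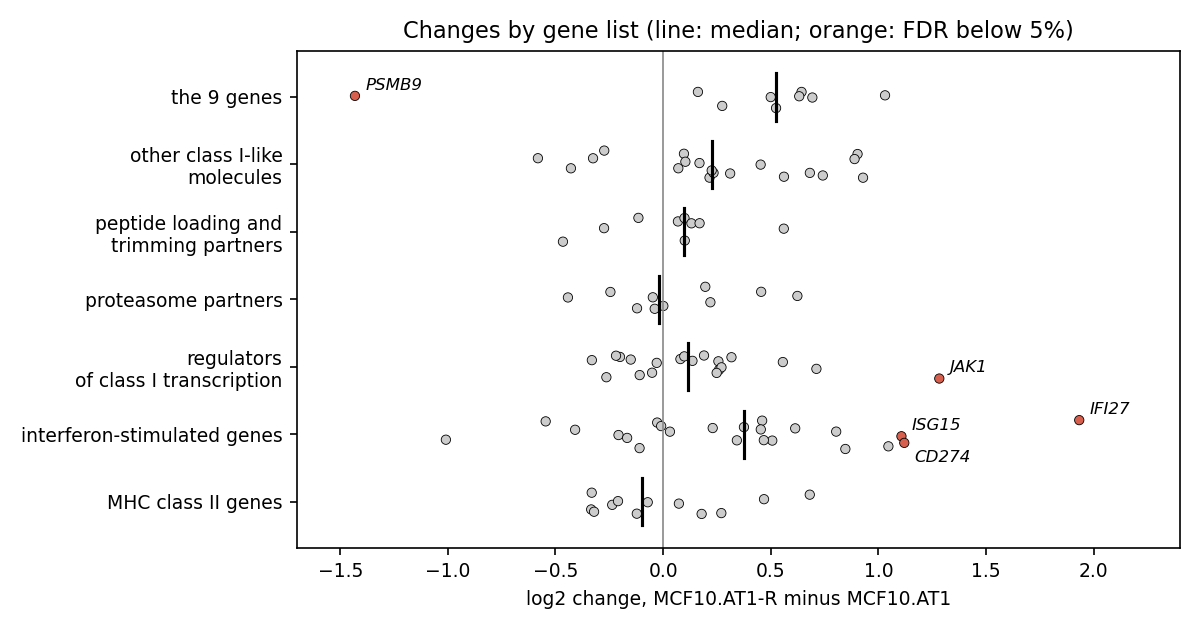
Log2 change of each gene, MCF10.AT1-R minus MCF10.AT1, for the 9 genes and 6 lists of related genes, with a black line at each list's median and orange points for genes past an FDR of 5% in limma. The medians run from -0.10 for class II genes to 0.52 for the 9 genes, PSMB9 stands alone at the left, and JAK1, ISG15, CD274 and IFI27 are the called genes at the right.

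Of the 9 genes 8 lie in the MHC region of chromosome 6, and B2M lies on chromosome 15. From HLA-F to TAPBP, in the order RefSeq gives, 230 genes were matched to the array and 144 were tested. Of these 1 was called higher and 3 lower, against 0.758% and 0.447% of all probe sets tested. The called genes were CDSN (1.14), MSH5 (-1.31), VPS52 (-1.22) and PSMB9 itself, named here because of their calls. The median change over the 144 was 0.10, and over the 136 left without the 8 genes it was 0.07. Transcripts overlap some of the genes. HLA-F-AS1, antisense to HLA-F, read 4.04 and 3.52, then 3.89, 4.37 and 3.49, a change of 0.13 with overlapping lines (adjusted p = 0.922 from limma). PSMB8-AS1, which overlaps TAP1, changed by 0.16 and read between 2.26 and 2.92, near the negative controls. RGL2, which overlaps TAPBP, changed by 0.38 (adjusted p = 0.821). Whether probes are shared between these pairs was not tested.

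With each gene centred on its mean over the 5 arrays, TAP1 lay closest to the median course of the 9 genes, at a root mean square distance of 0.048 log2 units, and PSMB9 furthest, at 0.942. B2M followed TAP1 at 0.103, and HLA-F stood at 0.295. The gene symbols outside the 9 with the smallest distance were FAM90A26 (0.029), warvobu (0.030), SEC24B (0.031), HOMER1 (0.032) and PPCS (0.032). FAM90A26 and warvobu lay below the negative controls. With 5 arrays in 2 lines, a course of this kind is in essence 1 step between the lines.

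Both lines were grown as cultures of cells derived from breast epithelium. RNA of any other cells would enter these bulk values, in which fewer cells of a type and less RNA per cell cannot be told apart. Of 8 haematopoietic markers 4 lay above the negative controls on all 5 arrays. The mean over the 8 was 2.75 to 2.93 in MCF10.AT1 and 2.87 to 3.14 in MCF10.AT1-R. Of these, PTPRC, MS4A1 and LYZ lay within the negative controls on all 5 arrays. Changes were above 0 in 7 of the 8, while CD14 fell, by 1.12 on the log2 scale (adjusted p = 0.0298 from limma). Of the fibroblast markers 3 of 6 lay above the controls on all 5 arrays, COL1A1 (change 0.15), COL1A2 (0.13) and COL3A1 (-0.16). DCN, above the controls on 4 of the 5 arrays, fell by 2.15 (adjusted p = 3.88e-09 from limma). Changes were above 0 in 3 of the 6. Means over the 6 were 4.50 to 4.61 in MCF10.AT1 and 4.14 to 4.27 in MCF10.AT1-R. Of the endothelial markers 2 of 5 lay above the controls on all 5 arrays. These were VWF, with a change of -0.003, and PECAM1, which fell by 1.12 (adjusted p = 0.0307 from limma). Means over the 5 were 3.16 to 3.19 in MCF10.AT1 and 2.82 to 2.97 in MCF10.AT1-R. LUM, PDGFRB, KDR and TEK lay within the controls on all 5 arrays. Basal breast epithelial markers moved with the genes that were higher: all 8 lay higher in MCF10.AT1-R and 5 were called, with means of 6.87 to 6.95 and of 8.59 to 8.68. General epithelial markers did too: all 4 lay higher without overlap and 2 were called, CDH1 and KRT8, with means of 8.04 to 8.05 and of 8.99 to 9.12. Of 8 markers of cornifying keratinocytes 4 were tested and 2 were called higher, KRT1 and CDSN. Changes were above 0 in 5 of the 8 and below 0 in 3 (LOR, FLG and CASP14). Of the 8, 3 lay above the controls on no array. Means over the 8 were 2.74 to 2.75 in MCF10.AT1 and 3.05 to 3.26 in MCF10.AT1-R. Over all probe sets tested 0.758% were called higher and 0.447% lower, and 12.9% lay higher without overlap. The part of these markers in the results for the 9 genes was not tested.

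On A03 the 9 genes read from 2.57 for HLA-E to 4.97 for HLA-F, each below every other array. HLA-E, TAP1, TAP2 and PSMB9 lay there below that array's own negative controls, whose 95th percentile was 3.15. Even B2M, between 9.38 and 9.85 on the other arrays, read 4.15. For PSMB9 the value of 2.97 lay below those of MCF10.AT1-R, so with A03 counted as MCF10.AT1 its lines overlapped.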

How the data were processed

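The authors deposited log2 expression values for 6 Clariom D arrays, which RMA had made from total RNA by correcting background, quantile normalizing the arrays and summarising probes, and not filtered: the table holds 135750 transcript probe sets and 2995 controls. Array columns were placed in a line by their letter, as in the study's legend, and carry no replicate number. RNA sequencing, qPCR and mouse data were not analysed here. Control probe sets were left out of the tests. Probe sets with a mean over the 5 arrays above the median of all (1.88) and an SD above the lowest 25% (0.18) were kept, 51457 in all, limits chosen here since the study names none. Lines were compared in R 4.3.3 by limma 3.58.1 (lmFit, then eBayes; two-sided, Benjamini-Hochberg, FDR 5%), which settled on a common SD of 0.34. The code was tested on simulated data. The 9 genes and all lists were chosen with earlier results of these data known. Named are the 9 genes, from each list the called genes and up to 4 others with the highest mean, and the 5 symbols nearest in course. Additions are stated where they occur or were PSMB6, PSMB8, PSMB10, PSME1, PSME2, PSME3, CXCL10 and CXCL11. Some list members are counted and not reported here as single genes. Lists are described by counts and medians, without a test. Promoters came from RefSeq (GRCh38.p14), and the motifs were chosen after the sequences were seen. Alternatives changed the arrays, limits, variance model, normalization and background. The number of arrays limits the precision.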

Additional observations from a re-analysis of the deposited data

How the results depend on the processing

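The call of PSMB9 held with array weights, with the trend option, with that option and the limit on mean alone, with quantile normalization repeated over the 5 arrays, with a median shift, and without B02, B03 or B04. It was lost with A03 included, with the limit on mean alone, without limits and with values raised to the negative controls (adjusted p = 0.243), where 0 of the 9 genes were called, and without A01 or A02. Array weights gave 2 called genes of the 9, HLA-F and PSMB9, with 735 calls over all probe sets against 620 in the main fit. Either fit with the trend option gave 4 of the 9, HLA-C, HLA-F, TAPBP and PSMB9. Leaving out 1 array gave 0 to 1. The median change was 1.49 with A03 and 0.50 to 0.59 with 1 array left out. Over all probe sets the calls numbered 26 with A03, 182 with the limit on mean alone, 177 without limits, 1377 with the trend option, 1086 with both changes, and 271 to 595 with 1 array left out. Of 135 refitted values for the 9 genes, 121 kept direction and side of the threshold, 6 lost the call, all for PSMB9, 7 gained it, and 1 turned, HLA-B at -0.14 without A01, in a leave-one-array-out range of -0.14 to 0.46. For the called genes of the lists 32 of 56 kept their call and 24 lost it. Averaging probe sets, counted among the 135 but not among the 56, could change nothing, with 1 per gene. Fits that changed only the limits or the trend option kept each estimate, so no direction could turn in them. The causes of these shifts were not tested. No paired analysis was possible because the array columns carry no replicate number.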
